A study of Mus musculus with 4 samples.

Results

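The surroundings of 9 replication origins (ORIs) at CpG island promoters were examined in mouse embryonic stem cells of the line PGK12.1. The members are the tiled probes that lie within 10 fragment numbers of the fragment holding each ORI, which gave 334 of the 19805 probes present on all 4 arrays. A fragment is a stretch of repeat-free genomic sequence covered by probes of 60 bases, and fragments are numbered along the chromosome. The centre fragments were selected on their nascent strand signal, since the study called these CpG island promoter-ORIs on arrays of 300–800 nt nascent strands. The 300–800 nt values of the members are therefore given as a description, and the tests concern the 100–600 nt strands. The study also called part of its ORIs on the 100–600 nt arrays, and whether that bore on picking these 9 is not given in the sources used here, so the tests are not known to be independent of the choice.

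The cells were female pluripotent cells and received no treatment. Each of the 4 two-colour Agilent arrays carried nascent strands on one dye and total genomic DNA of the same cell line on the other. Nascent strands of 100–600 nt were hybridised on 2 arrays, labelled with Cy5, and strands of 300–800 nt on 2 arrays, labelled with Cy3. All strands had been treated with λ-exonuclease. Fraction, dye, array design and software version change together, so a difference between the fractions cannot be told apart from a difference between these conditions. The study checked its 300–800 nt preparations by Q-PCR at ORI 67276, one of the 9, and hybridised only those enriched there, which limits what that ORI adds.

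A replication origin is a site where DNA synthesis starts and moves outwards in both directions. The newest DNA is therefore short and lies over the origin, and short nascent strands protected by an RNA primer from λ-exonuclease mark where synthesis began. CpG islands are stretches of mostly unmethylated DNA rich in C+G and in the dinucleotide CpG, and in mammals many promoters lie within them. The value given throughout is the log2 of nascent strand signal divided by genomic DNA signal, normalised within each array, so that 0 marks a typical probe.

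The ORIs lie on 2 chromosomes. On chromosome X are Rap2c, a small GTPase of the Ras family, Prrg3, a membrane protein of the vitamin K-dependent Gla type, F8a, an intronless gene, Slc6a8, the creatine transporter, and ORI 67276. On chromosome 3 are Za20d1, a deubiquitinase now called Otud7b, 1810037G04Rik, now called Bola1 and a member of the BolA family, Terc, the RNA template of telomerase, and Notch2, a receptor of the Notch family. The number of member probes ran from 18 around F8a to 58 around Prrg3. Of the 21 fragment numbers that a neighbourhood could hold, 8 carried probes around F8a and 20 around Rap2c, Prrg3, Slc6a8 and Notch2.

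From the neighbourhoods of Rap2c, Prrg3, F8a, 1810037G04Rik and Notch2, 6 probes with high ratios and 1 low neighbour are shown so that their CpGs can be read directly. The 6 held 4 to 8 CpGs, whereas the peak probes of Prrg3, Za20d1 and Terc held 2. CpGs are in capitals, sequences run 5′ to 3′ as they were deposited, and positions are on Ensembl mouse build 35. The second Rap2c probe lies in the neighbouring fragment and the second Notch2 probe lies in the same fragment as the first, with a ratio far below 0.
Rap2c, chrX:45539398-45539457: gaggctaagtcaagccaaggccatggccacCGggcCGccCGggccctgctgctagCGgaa
Rap2c, chrX:45539752-45539811: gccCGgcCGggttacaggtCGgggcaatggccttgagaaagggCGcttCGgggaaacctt
Prrg3, chrX:66623280-66623339: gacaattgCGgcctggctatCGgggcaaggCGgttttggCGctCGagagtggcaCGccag
F8a, chrX:67889240-67889299: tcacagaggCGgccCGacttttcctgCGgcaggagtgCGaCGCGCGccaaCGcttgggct
1810037G04Rik, chr3:95685088-95685147: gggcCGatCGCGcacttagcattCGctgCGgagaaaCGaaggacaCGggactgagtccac
Notch2, chr3:97499730-97499789: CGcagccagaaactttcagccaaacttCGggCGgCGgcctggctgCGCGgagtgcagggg
Notch2, chr3:97500000-97500059: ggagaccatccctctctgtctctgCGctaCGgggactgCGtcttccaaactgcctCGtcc

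The lowest probes outside the centre fragment in 300–800 nt strands held 0, 0 and 1 CpG at Rap2c, 1810037G04Rik and Notch2. The highest outside it there held 5, 0 and 0, and 127 of all 217 probes at 3 to 10 fragments held none. At Prrg3, F8a, Slc6a8, ORI 67276, Za20d1 and Terc the highest outside held 0, 1, 5, 3, 7 and 3 CpGs. The lowest there held 0, 0, 0, 0, 0 and 2. Whether the number of CpGs sets the lowest probes apart was not tested. The lowest probes lie 10 fragments before the centre at Rap2c, 9 after it at 1810037G04Rik and 5 after it at Notch2, and their exact positions are not given in the sources used here.
Rap2c, lowest outside: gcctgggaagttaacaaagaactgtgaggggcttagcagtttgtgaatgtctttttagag
1810037G04Rik, lowest outside: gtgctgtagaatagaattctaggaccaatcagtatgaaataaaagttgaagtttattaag
Notch2, lowest outside: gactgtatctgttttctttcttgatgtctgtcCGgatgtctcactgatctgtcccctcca

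The probe with the highest mean 300–800 nt ratio in each centre fragment is called the peak probe. In 300–800 nt strands, which chose the members, the peak ratios of replicates 1 and 2 were 2.50 and 2.66 at Rap2c, 1.49 and 1.63 at Prrg3, and 2.46 and 2.53 at F8a. They were 2.69 and 2.64 at Slc6a8, 1.96 and 2.02 at ORI 67276, and 1.94 and 2.01 at Za20d1. At 1810037G04Rik they were 1.87 and 1.83, at Terc 1.82 and 1.87, and at Notch2 2.32 and 2.32. Slc6a8, Rap2c, F8a and Notch2 stood highest and Prrg3 lowest, but this order depended on the processing. With median centring without loess, Rap2c had 3.35 against 2.68 at Slc6a8, and Prrg3 had 2.33 against 1.95 at 1810037G04Rik. With normexp background correction these values were 2.58 against 1.86, and 1.59 against 1.41. In the order of the means, Slc6a8 led Rap2c by 0.09 and Rap2c led F8a by 0.08, gaps no larger than the SD of 0.12 between the 2 arrays at Rap2c. ORI 67276 and Za20d1 differed by 0.02, and 1810037G04Rik and Terc by 0.0039, each less than the spread between arrays.

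In 100–600 nt strands the same 9 probes all had a mean ratio above 0. The ratios of replicates 1 and 2 were 1.92 and 2.32 at F8a, 1.89 and 2.02 at Notch2, and 1.59 and 1.30 at ORI 67276. They were 1.38 and 1.42 at Za20d1, 1.12 and 0.97 at Rap2c, and 0.75 and 1.14 at 1810037G04Rik. At Slc6a8 replicate 1 gave 2.37, at Prrg3 replicate 1 gave 0.73, and at Terc replicate 2 gave 0.60, because the other spot was marked by the software and left out. Slc6a8, F8a and Notch2 were the highest in this fraction as well, whereas Rap2c, second in 300–800 nt strands, was sixth in 100–600 nt strands. These ranks also depended on the processing. With normexp background correction Notch2 (1.50) and Za20d1 (1.43) led Slc6a8 (1.26), and Rap2c (1.14) stood above F8a (0.87). The neighbours Rap2c and 1810037G04Rik differed by 0.10, and ORI 67276 and Za20d1 by 0.05, each within the SD between arrays.

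The 6 peak probes with a value on both 100–600 nt arrays all had a ratio above 0, the level of a typical probe, in limma's test over 15478 probes (Benjamini-Hochberg adjusted, two-sided). F8a had a log2 ratio of 2.12 ± 0.22 (SE, adjusted p = 3.25e-05) and Notch2 of 1.96 ± 0.22 (adjusted p = 3.25e-05). ORI 67276 followed with 1.45 ± 0.22 (adjusted p = 0.000344) and Za20d1 with 1.40 ± 0.22 (adjusted p = 0.000417). Rap2c had 1.05 ± 0.22 (adjusted p = 0.00368) and 1810037G04Rik 0.94 ± 0.22 (adjusted p = 0.00847). Centring the arrays within bins of probe C+G content ended the calls of Rap2c (0.23, limma adjusted p = 0.534) and 1810037G04Rik (0.51, limma adjusted p = 0.111), and normexp background correction those of F8a (0.87, limma adjusted p = 0.0614) and ORI 67276 (0.86, limma adjusted p = 0.0577). Za20d1 and Notch2 passed under both. With the marked spots kept, the Slc6a8 peak had 2.34 (limma adjusted p = 0.000469), Prrg3 0.64 (limma adjusted p = 0.0748) and Terc 0.47 (limma adjusted p = 0.179).

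**Figure D1:**
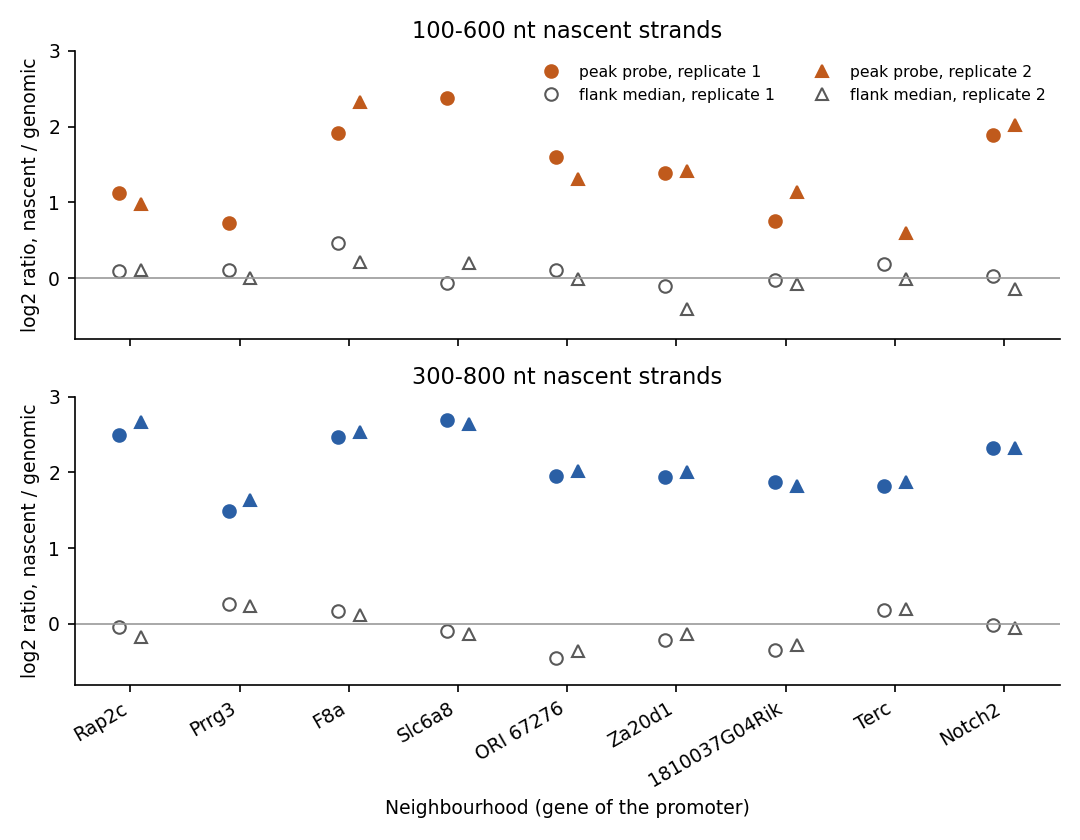
Log2 ratio, nascent strands to genomic DNA (y axis), for each of the 9 neighbourhoods (x axis), in 100–600 nt strands above and 300–800 nt strands below. Filled symbols are the peak probe and open symbols the median of the probes 3 to 10 fragments away, circles are replicate 1 and triangles replicate 2. Every peak symbol lies above the flank symbols of its own neighbourhood, and 3 peak values are missing in 100–600 nt strands.

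The flank of a neighbourhood, taken as the median of its probes 3 to 10 fragments from the centre (only 3 probes at F8a), lay near 0. Its mean over the 9 neighbourhoods was 0.09 and -0.02 on the 100–600 nt arrays and -0.06 and -0.06 on the 300–800 nt arrays. The mean peak was 1.47 and 1.39 in 100–600 nt strands, over the 8 and 7 neighbourhoods with a value, and 2.12 and 2.17 in 300–800 nt strands. The peak therefore stood 1.40 and 1.44 above its flank on the 100–600 nt arrays, with a mean of 1.42, and 2.20 in 300–800 nt strands. The 2 arrays of 100–600 nt strands lack different peaks, so the closeness of 1.40 and 1.44 does not measure how well they agree. For single neighbourhoods the height of the peak over its flank ran from 0.61 at Terc to 2.44 at Slc6a8 in 100–600 nt strands, and from 1.30 at Prrg3 to 2.78 at Slc6a8 in 300–800 nt strands. Over the 6 peaks with a value on every array, the means were 1.44 and 1.53 in 100–600 nt strands and 2.17 and 2.23 in 300–800 nt strands. The flanks of these 6 had means of 0.09 and -0.05 in 100–600 nt strands and -0.15 and -0.15 in 300–800 nt strands.

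No flank probe exceeded the peak of its own neighbourhood in 100–600 nt strands, except for 2 probes at Terc, where the peak was lowest. In 300–800 nt strands 1 flank probe did so, 7 fragments before the centre of 1810037G04Rik, with 1.94 and 1.89. In 100–600 nt strands that probe had 0.15 on replicate 2 and no value on replicate 1, and it holds no CpG. The flanks were not flat: the mean ratios of flank probes had an SD of 0.47 in 100–600 nt strands and 0.73 in 300–800 nt strands, close to the SD over all tiled probes of 0.48 and 0.73.

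By distance, the mean over neighbourhoods at the centre fragment was 0.65 and 0.50 on the 100–600 nt arrays and 1.02 and 1.05 on the 300–800 nt arrays. At 1 fragment after the centre these means were 0.18 and -0.03, against 0.40 and 0.46, and at 1 fragment before it 0.03 and 0.19, against 0.15 and 0.14. From 2 fragments outwards the 300–800 nt means stayed between -0.60 and 0.18 on both arrays, with the exception of 0.53 and 0.49 at 3 fragments before the centre, where 7 neighbourhoods had probes and the mean ratio was above 0 in all 7. In 100–600 nt strands the same distance gave -0.01 and 0.30. The probes at 10 fragments had a median of -0.14 in 100–600 nt strands and -0.42 in 300–800 nt strands, and those just outside the limit, at 11 fragments, -0.07 and 0.17.

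**Figure D2:**
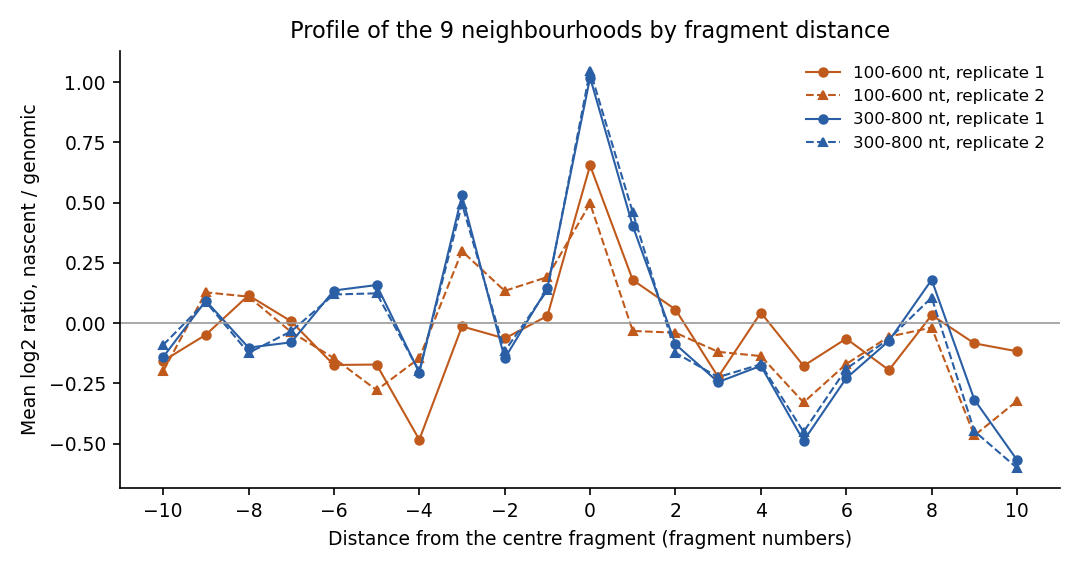
Mean log2 ratio, nascent strands to genomic DNA (y axis), by distance from the centre in fragment numbers (x axis), each point the mean over neighbourhoods of the mean over probes at that distance, with one line per array. All 4 arrays have their highest mean at the centre fragment, 0.65 and 0.50 in 100–600 nt strands and 1.02 and 1.05 in 300–800 nt strands.

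Of the 251 member probes tested in 100–600 nt strands, 24 had a ratio above 0 at an adjusted p under 0.05 in limma, or 9.56%, against 3.66% of all probes tested. They were not spread evenly: 12 of 31 probes of the centre fragments passed, 8 of 56 probes at 1 or 2 fragments, and 4 of 164 probes at 3 to 10 fragments. The last share, 2.44%, is below that of all probes. Of the 24 probes, 6 passed under every setting run, namely the Notch2 peak, both listed Za20d1 probes, the ORI 67276 probe 515 bases from its peak, and a probe 2 fragments before and another 4 fragments after the centre of Slc6a8. Called with a ratio below 0 were 25 member probes, or 9.96% against 9.47% of all probes, with 1 in a centre fragment, 4 at 1 or 2 fragments and 20 farther away. In the median over members the ratio was 0.07 in both fractions, against 0.02 in 100–600 nt and 0.00 in 300–800 nt strands over all tiled probes. With C+G bins the numbers higher became 7, 6 and 7 for the 3 distances, against 4.35% of all probes, and with normexp 5, 3 and 1, against 0.704%.

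A ratio above the 95th percentile of its own array on each of the 4 arrays was reached by 13 of 251 member probes, and by 0.284% of all probes. Of these, 9 were among the 31 probes of the centre fragments, 4 among the 56 at 1 or 2 fragments and 0 among the 164 farther away. The 300–800 nt arrays enter this count, so it is a description of how the members were chosen.

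How fast the ratio fell off within a centre fragment differed from promoter to promoter. F8a had high ratios over several probes in both fractions. At the peak probe its mean ratio was 2.12 in 100–600 nt and 2.49 in 300–800 nt strands, at 310 bases beyond it 1.38 and 1.73, and at 520 bases 0.22 and 1.24. On the other side, 390 bases before the peak, it was 0.91 and 0.51, and 480 bases before it -0.38 and 1.16. The probes with 8, 8 and 5 CpGs had the 3 highest 100–600 nt ratios of this fragment, and each passed the test (limma adjusted p at most 0.00962). Centring within C+G bins ended the calls of the second probe with 8 CpGs (0.56) and of the probe with 5 CpGs (0.59), and the latter did not pass after normexp either (0.84).

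Notch2 had a narrow peak. The probe at the peak had 2.32 and 2.32 in 300–800 nt strands and the next probe, 270 bases on, -1.37 and -1.31, although it holds 4 CpGs. In 100–600 nt strands that second probe had 0.67 and -0.28, and the probe 540 bases from the peak had 0.81 and 1.00 and passed the test (0.91, limma adjusted p = 0.00999), though not after normexp (0.83). On the other side, 360 bases before the peak, the ratios were -0.50 in 100–600 nt strands on replicate 1 and -0.42 and -0.38 in 300–800 nt strands. Za20d1 was also low beside its peak on the side where the centre fragment has probes, since the probe 240 bases before the peak had 0.23 and -0.44 in 100–600 nt and -0.91 and -0.60 in 300–800 nt strands. Its other listed probe, 299 bases beyond the peak at chr3:95592347-95592406 and in the next fragment, had 1.66 and 1.21 against 1.90 and 1.97 (limma adjusted p = 0.000424 in 100–600 nt strands).

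At Prrg3 the fractions peaked at different probes, though which probe led in 100–600 nt strands depended on the processing. The highest 300–800 nt ratio lay at chrX:66622850-66622909, at a probe that is not among those by which the study lists this ORI. The highest 100–600 nt ratio lay 430 bases on, at the probe shown above, with 1.74 and 2.02. That probe had a ratio of 1.88 ± 0.22 in limma (SE, adjusted p = 4.36e-05), and the probe 810 bases from the peak had 1.27 ± 0.24 (SE, adjusted p = 0.00197). Centring within C+G bins left the first of them past the threshold and ended the call of the second (0.45), and normexp ended both calls (0.65 and 0.51). After normexp the first lay below the peak probe (0.74, replicate 1 only) and below the probe 490 bases before the peak (0.84). In 300–800 nt strands the means were 1.56 at the peak, 0.98 at 320 bases, 1.37 at 430 bases and 1.36 at 810 bases, and the ratio turned to -0.45 at 950 bases.

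At Rap2c the centre fragment is 170 bases long and has 1 probe. In the next fragment, 354 bases away, the listed probe had 1.67 and 2.21 in 100–600 nt strands, above the peak probe, and 1.64 and 1.41 in 300–800 nt strands, below it. It passed the test in 100–600 nt strands (1.94 ± 0.22 SE, limma adjusted p = 4.36e-05), though not after normexp (0.48), where it lay below the peak probe (1.14). The probe 2334 bases from the peak had 0.82 ± 0.23 (SE, limma adjusted p = 0.023) and did not pass after normexp (0.91). In the fragment 2 before the centre, 2 probes passed, with 0.77 and 0.75, and neither did with median centring (0.39 and 0.53), normexp (0.30 and 0.56) or marked spots kept (0.72 and 0.72). Rap2c had 7 of 39 tested probes called, or 17.9%, and F8a 3 of 16, or 18.8%. Such shares depend on the make-up of a neighbourhood, since F8a has 7 centre probes and 3 flank probes, and Slc6a8 2 and 40. The other neighbourhoods with calls ran from 1 of 24 at 1810037G04Rik, or 4.17%, to 3 of 26 at ORI 67276, or 11.5%, against 3.66% of all probes. At Terc 0 of 15 were called higher and 2 lower.

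At Slc6a8 the peak probe, at chrX:68334449-68334508, was the highest of all 9 neighbourhoods, though not in 300–800 nt strands with median centring or normexp. It is not among the probes by which the study lists this ORI. The listed probes, 674 bases before it and 500 bases after it, had 1.72 and 1.66, and 1.62 and 1.55, in 300–800 nt strands. In 100–600 nt strands the first had 0.63 and 1.11 (limma adjusted p = 0.0148) and the second 0.07 on replicate 1 alone. The call of the first was lost within C+G bins (0.54) and after normexp (0.82). A probe 2 fragments before the Slc6a8 centre had 1.04 and 2.09 in 100–600 nt strands (1.56 ± 0.25 SE, limma adjusted p = 0.000514) and 0.65 and 0.59 in 300–800 nt strands.

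At ORI 67276 a listed probe 270 bases from the peak, with 6 CpGs, had 1.59 and 1.54 in 300–800 nt strands and -0.75 and -1.13 in 100–600 nt strands. The ratio in 100–600 nt strands was lower than 0 in the test (-0.94 ± 0.22 SE, limma adjusted p = 0.00879), though not after normexp (-0.91), and it was the only probe of a centre fragment called lower. The neighbouring peak probe and the listed probe on the other side of the peak, 515 bases from it, with 1.34 and 1.62, were both called higher (limma adjusted p = 0.000344 and 0.0003). At Terc the centre fragment has 1 probe. A probe 2 fragments before it had -2.50 and -2.56 in 300–800 nt strands and -2.13 in 100–600 nt strands on replicate 2, and its distance in bases is not known.

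**Figure D3:**
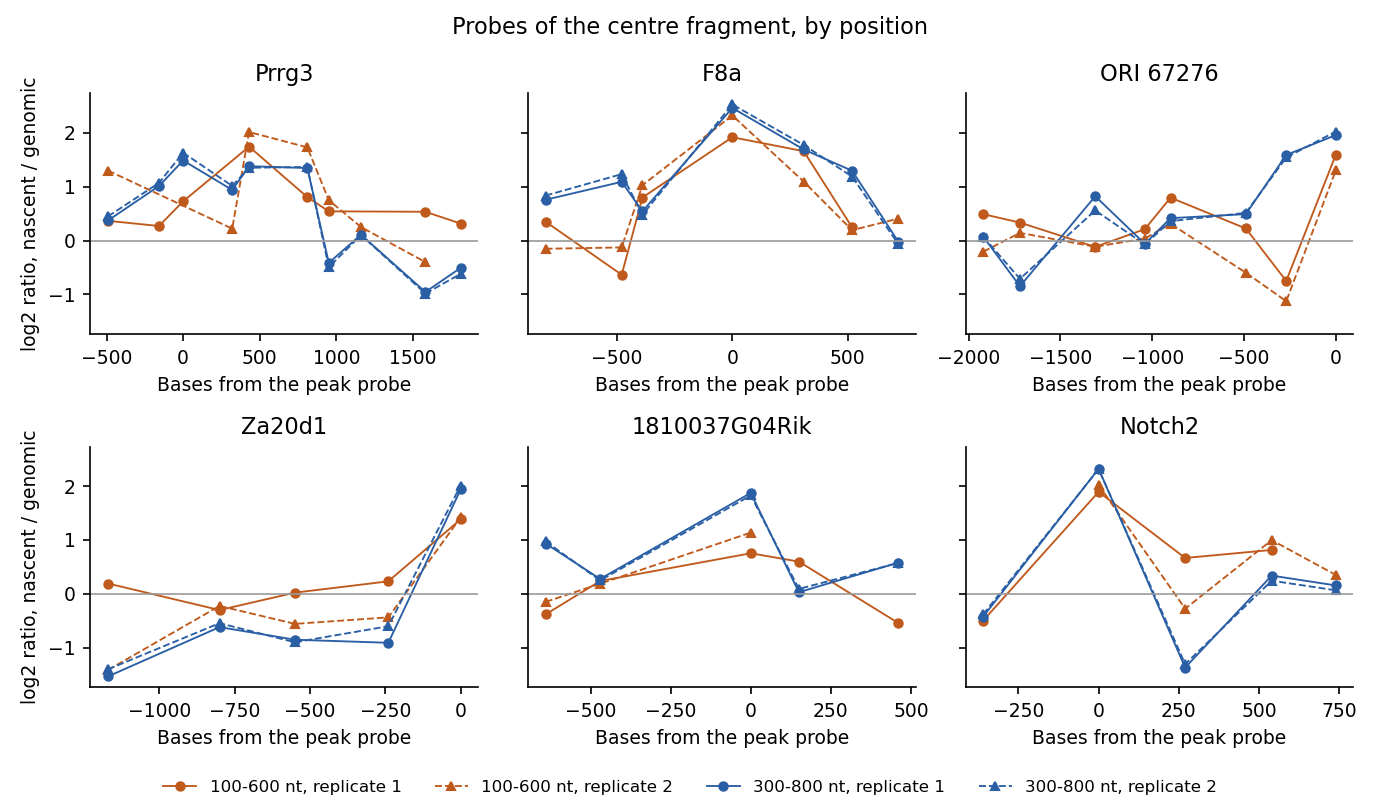
Log2 ratio, nascent strands to genomic DNA (y axis), of each probe of the centre fragment by its distance in bases from the peak probe (x axis), for the 6 centre fragments with more than 2 probes and one line per array. F8a and Prrg3 have several neighbouring probes above 1, Notch2 and Za20d1 a single one, and at ORI 67276 the fractions have opposite signs 270 bases from the peak.

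The members also differ in base composition, which is given as a description, since CpG islands are defined by it. Probes of the centre fragments held 2.52 CpGs on average and a median C+G content of 49.2%, those at 1 or 2 fragments 1.15 and 45%, and those at 3 to 10 fragments 0.581 and 43.3%. Over all tiled probes the values were 0.598 and 41.7%, so the flanks resembled the rest of the arrays. The 9 peak probes held between 2 and 8 CpGs, whereas 127 of 217 flank probes held none.

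In the centre fragments the 12 probes with 4 or more CpGs had a median ratio of 1.32 in 100–600 nt and 1.79 in 300–800 nt strands. The 21 probes with 1 to 3 CpGs had 0.24 and 0.26, and the 11 without CpG 0.07 and 0.39. Over all tiled probes, the 228 probes with 4 or more CpGs had medians of 0.54 and 0.54, and the 11448 without CpG -0.02 and -0.02. CpG-rich probes thus had higher medians over all tiled probes, and those of the centre fragments, chosen for high 300–800 nt ratios, stood above that. Only 2 flank probes had 4 or more CpGs, with 0.65 in 100–600 nt and 0.54 in 300–800 nt strands at 1810037G04Rik, and -0.26 and 0.42 at Slc6a8. The part of base composition in the peak was not tested, but after centring within C+G bins the mean peak was 0.92 in place of 1.43 in 100–600 nt strands and 1.65 in place of 2.14 in 300–800 nt strands.

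**Figure D4:**
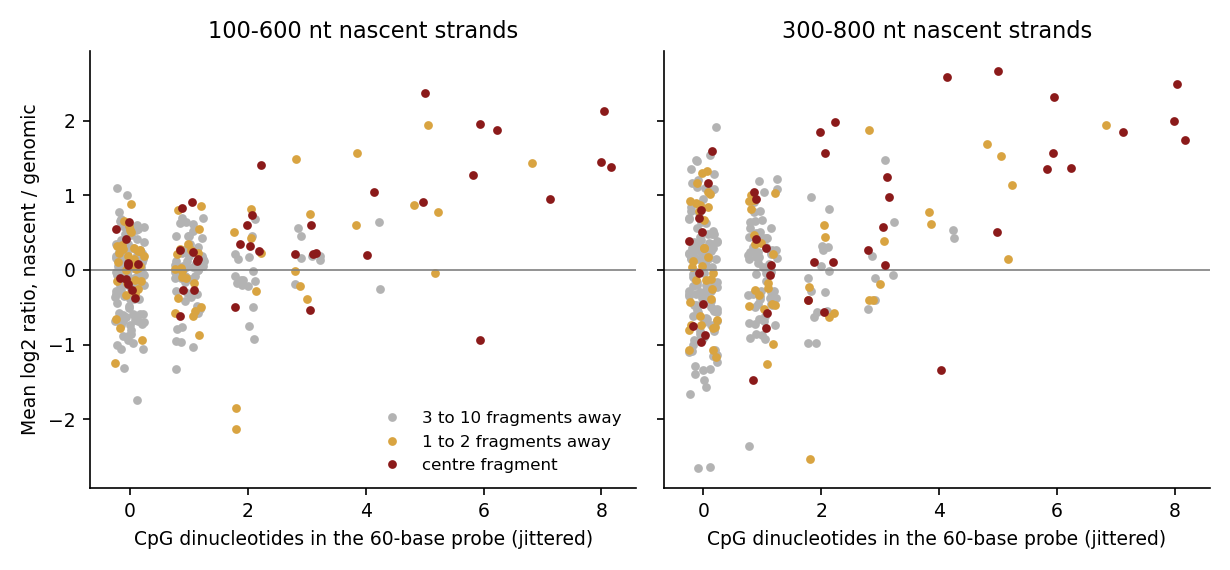
Mean log2 ratio (y axis) of every member probe by the number of CpG dinucleotides in its 60 bases (x axis, jittered), in 100–600 nt strands on the left and 300–800 nt strands on the right, coloured by distance from the centre fragment. Probes with 4 or more CpGs lie within 2 fragments of the centre but for 2 flank probes, and of those in the centre fragments 8 of 12 lie above 1 in 100–600 nt strands and 10 of 12 in 300–800 nt strands.

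The position of the peaks relative to a transcription start site was read from the RefSeq promoter windows of GRCm38.p6, which span 250 bases before to 50 after a start site. Windows were at hand for Rap2c, Prrg3, F8a, Bola1 (1810037G04Rik) and Notch2, 6 windows in all, and each shared at least 20 bases with a member probe. At Notch2 the peak probe lies over the start site, from 18 bases before it to 41 after it. In the window, chr3:98013288-98013587 on the plus strand, the peak probe is in capitals.
Notch2 promoter: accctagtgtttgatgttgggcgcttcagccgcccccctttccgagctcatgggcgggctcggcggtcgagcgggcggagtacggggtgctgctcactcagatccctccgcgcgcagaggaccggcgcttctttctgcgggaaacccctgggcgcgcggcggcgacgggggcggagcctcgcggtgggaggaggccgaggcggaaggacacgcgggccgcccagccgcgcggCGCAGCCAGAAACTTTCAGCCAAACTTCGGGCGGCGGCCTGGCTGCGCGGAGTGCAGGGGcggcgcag

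Counted along the fragment from a matched probe, the peak probe of F8a began 278 bases after the start site and that of 1810037G04Rik 272 bases after it. The F8a probes upstream of the start site, at 112 and 202 bases before it, had 0.91 and -0.38 in 100–600 nt strands. At 1810037G04Rik the probe 188 bases before the start site had -0.54 in 100–600 nt strands on replicate 1 and 0.58 in 300–800 nt strands. Prrg3 has 2 start sites in RefSeq. The Prrg3 probe that was highest in 100–600 nt strands, though not after normexp, began 1 base before the first of them. The probe 810 bases from the peak began 22 bases after the second, while the 300–800 nt peak began 431 bases before the first. At Rap2c the window matched a probe 2 fragments before the centre, with 0.48 and 1.01 in 100–600 nt and 0.28 and 0.49 in 300–800 nt strands, so the highest ratios lay away from this start site.

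The windows held between 17 and 41 CpGs, where the median of all 32851 windows was 7, and the Notch2 window was among the 3.46% with as many. The motif GGGCGG, searched on both strands, occurred in the windows of Notch2, Rap2c, Prrg3 and F8a and in 35.7% of all windows. TATAAA, on both strands, occurred in the F8a window alone of the 6 and in 13.6% of all windows.

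The ratio has a numerator and a denominator, and both moved. The 2 signals are given before the loess normalisation of the ratio, so their difference does not equal the ratios reported above. In 300–800 nt strands the nascent strand signal of the peak probe was above the median of its flank in all 9 neighbourhoods, by 0.68 at Slc6a8 to 4.21 at Rap2c on the log2 scale. The genomic DNA signal on these arrays was below the flank in 7 of 9, by as much as -1.88 at Slc6a8, and above it at Rap2c and Prrg3. In 100–600 nt strands the nascent signal was above the flank in 7 of 9 neighbourhoods, with a median of 0.55, and the genomic signal below it in 7 of 9, with a median of -0.44. At F8a and ORI 67276 the nascent signal of the peak was itself below the flank, by -0.62 and -0.71, and the genomic signal by -1.92 and -1.81. At Rap2c, Prrg3, Za20d1 and Terc the genomic signal in this fraction lay between -0.26 and 0.06 of the flank. The part of the genomic DNA signal in the ratios was not tested.

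**Figure D5:**
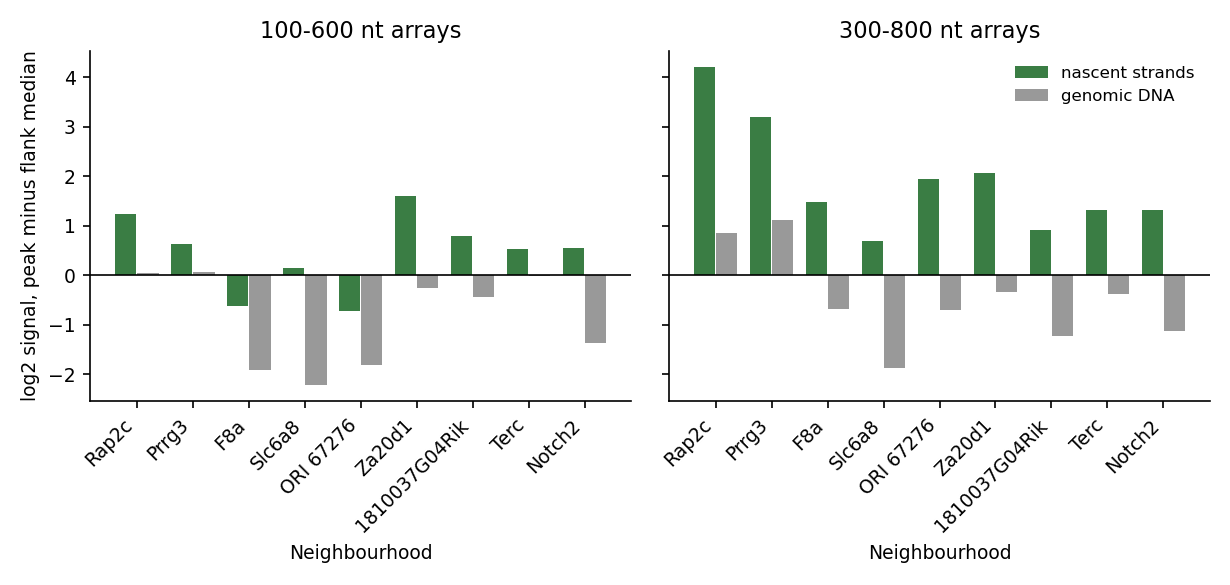
Log2 signal of the peak probe minus the median of the probes 3 to 10 fragments away (y axis) for each neighbourhood (x axis), for nascent strands and genomic DNA, averaged over the arrays of each fraction with a value. Bars start at 0, and the signals are those before loess normalisation. On the 300–800 nt arrays all 9 nascent strand bars are above 0, and on the 100–600 nt arrays those of F8a and ORI 67276 are below it.

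Between the fractions, 57 of 251 member probes were higher in 300–800 nt strands and 38 lower in limma over all probes (adjusted p under 0.05), or 22.7% and 15.1%, against 18.9% and 16.2% of all probes. Of these, 8 and 4 lie in the centre fragments, where the 300–800 nt values chose the members and the difference is a description. Both 300–800 nt arrays share a slide, and they differed by an SD of 0.09 over all probes, against 0.16 between repeated spots on each of them. The 2 values are not like for like, since 0.16 is for single spots and array values average repeated spots (39610 for 19805 probes). With their mean as 1 sample, 12 member probes were higher and 5 lower, against 4.73% and 2.11% of all probes. Both 100–600 nt arrays differed by an SD of 0.35. The probe of ORI 67276 with opposite signs had a difference of 2.50 and the Rap2c peak probe one of 1.53. Both are listed for their high 300–800 nt ratios, which favours a positive difference, so no test is given. After scaling the arrays to the same median absolute deviation (MAD), the differences were 2.41 and 0.82.

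Over the 251 member probes with all values, the ratios of the 100–600 nt arrays correlated with each other with r = 0.74 and those of the 300–800 nt arrays with r = 0.99, against 0.59 and 0.98 over all tiled probes. Between the fractions r lay between 0.45 and 0.56 among members and between 0.29 and 0.38 over all probes. These are correlations across probes of the same arrays, and probes are not independent replicates. Values were missing for 29 and 58 of the 334 member probes on the 100–600 nt arrays and for 0 on the 300–800 nt arrays.

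The other ORIs listed by the study give a scale, without a test, since their listing rests on the same 300–800 nt arrays. For 26 other CpG island promoter-ORIs the median peak ratio was 0.71 in 100–600 nt strands and 1.82 in 300–800 nt strands, against 1.40 and 1.99 for the 9. For 49 ORIs outside promoters and CpG islands it was 0.27 and 1.47. The peak stood above its flank in 100–600 nt strands at 9 of the 9, at 25 of the 26 and at 37 of the 49. The median number of CpGs in the peak probe was 5, 3.5 and 0.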

How the data were processed

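Mouse ES cell nascent strands and total DNA were co-hybridised to 4 Agilent arrays with 2 dyes each, 2 arrays per fraction, grouped by the sample titles. The authors deposited the signal intensity of both dyes for every spot, as written by Agilent Feature Extraction (version 7.5.1 for 100–600 nt and 9.5.3.1 for 300–800 nt strands), which subtracted background and, for 300–800 nt strands, normalised the dyes. Loess normalisation is described in the study's methods and was not part of the deposited intensities.

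Nascent strand processed signal was divided by that of genomic DNA and taken to log2. Control spots and spots marked as not uniform, population outliers, not found or set aside by hand were left out (1492 and 3459 spots on the 100–600 nt arrays, 7 and 13 on the 300–800 nt arrays). Loess within each array, averaging of repeated spots and the moderated tests with Benjamini-Hochberg adjustment used limma 3.58.1 in R 4.3.3, and summaries Python 3.11 with pandas 2.3.3. The 100–600 nt test sets the mean ratio against 0. The median raw signal was 320 to 816 for nascent strands and 162 to 320.5 for genomic DNA, and the number of arrays limits the precision. The study calls the 300–800 nt arrays biological replicates, and the labels name no separate cultures. The p-values rest on a spread between arrays that limma shares across probes. The SE was 0.22 at both the Za20d1 and the F8a peak, where the 100–600 nt arrays differed by an SD of 0.02 and 0.29.

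The members and lists were chosen with earlier results of these data known. Named are, per neighbourhood, the peak probe, the probes listed for the ORI, the highest and lowest probe outside the centre fragment, and up to 3 other probes called in 100–600 nt strands; other probes of the centre fragments and the values by distance were added after they had been seen. Sequences are shown for the neighbourhoods whose gene has a RefSeq promoter window. Positions follow from the probes listed with coordinates, and no genome was used. The 26 and 49 ORIs used for comparison are those listed with a centre fragment outside the members. The hybridisation number does not pair the arrays: across probes, replicate 1 minus replicate 2 in one fraction correlated with the same difference in the other at r = -0.00974. Tests were checked on simulated data. The alternatives were median centring without loess, normexp (offset 50, on median signals, since mean signals are given for one fraction only), keeping marked spots, leaving out saturated spots, centring within C+G bins, one spread for all arrays, scaling to the same MAD, a replicate block, other definitions of peak and flank, and leaving out each array; treating the 300–800 nt arrays as 1 sample was added after the data were seen. Not every gene or sequence of these regions is reported here.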

Additional observations from a re-analysis of the deposited data

Results flagged for a closer look

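At 3 named probes the fractions stood apart both with 4 arrays and with the 300–800 nt arrays as 1 sample. All 3 were named for their 300–800 nt values, which favours such a difference, so the values are a description. The listed probe of ORI 67276, 270 bases from its peak, was 2.50 higher in 300–800 nt strands, with 1.59 and 1.54 there and -0.75 and -1.13 in 100–600 nt strands. The peak probe of Rap2c was 1.53 higher in 300–800 nt strands. A probe 7 fragments after the centre of Prrg3, the lowest of that neighbourhood in 300–800 nt strands with -1.25 and -1.40, had 0.29 and -0.20 in 100–600 nt strands, a difference of -1.37. Dye, array design and software version change with the fraction, so these differences cannot be told apart from them.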

How the results depend on the processing

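Every peak-minus-flank mean stayed above 0 under the settings run. Against 24 higher and 25 lower member probes in 100–600 nt strands, normexp gave 9 and 11, one spread shared by all 4 arrays gave 43 higher, and C+G bins gave 39 lower. Against 57 and 38 member probes higher and lower in 300–800 nt strands, normexp gave 25 and 9, scaling to the same MAD 37 and 21, the 300–800 nt arrays as 1 sample 12 and 5, and keeping marked spots 59 lower. Leaving out 1 array gave 11 to 100 higher and 3 to 97 lower (94 and 97 without 100–600 nt replicate 1, 100 and 92 without replicate 2, 11 and 6 without 300–800 nt replicate 1, 13 and 3 without replicate 2), the lone array being assumed to vary like the other fraction. The 100–600 nt test has no residual degrees of freedom without an array. The replicate block gave 51 higher and 50 lower, while the numbers did not pair the arrays.

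The mean peak in 100–600 nt strands was 1.11 with normexp, 1.35 with marked spots kept, 0.92 with C+G bins and 1.16 over the listed probes of the centre fragment, and in 300–800 nt strands 1.83, 2.43 with median centring, 1.65 with C+G bins and 1.93 over the listed probes. The mean flank in 300–800 nt strands was 0.023 with median centring, -0.038 with normexp and 0.085 over 3 to 5 fragments. Peak minus flank in 100–600 nt strands was 1.37 with median centring, 1.12 with normexp, 1.31 with marked spots kept, 0.94 with C+G bins, 1.47 with the flank of 3 to 5 fragments and 1.14 over the listed probes. In 300–800 nt strands it was 2.40, 1.87, 1.71 with C+G bins, 2.06 with the nearer flank and 1.99 over the listed probes. The difference between the fractions at the Za20d1 peak reversed to -0.093 with the same MAD. Of the 22 named probes called in 100–600 nt strands, 15 lost the call under at least 1 setting, and of 11 named differences between the fractions 10 did. Of all 24 member probes called higher, 18 lost the call under at least 1 setting and 6 under none. The cause was not tested. The count of arrays limits all of these values.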
